A study of Mus musculus with 14 samples.

Results

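Glucose entry into the brain and the handling of its product, pyruvate, were followed in 10 genes: Slc2a1, Slc16a1, Ldha, Ldhb, Mpc1, Pdha1, Pdk1, Pdk2, Pdk3 and Pdk4. The members were chosen by name, and all 10 were found among the 56748 genes in the table and passed the filter on low counts, as 16882 genes did. Brain RNA was compared at postnatal day 23 (P23) between 7 Rik null mice, which carry 2 null copies of the gene 2310061I04Rik, and 7 wild-type (WT) littermates, under the strain label C57BL6/J and with no treatment. The allele is a small deletion in the gene's first intron that arose by chance in an embryonic stem cell clone and was later separated from the floxed Traf7 allele by backcrossing. Rik null mice are runted, ataxic and die soon after P23, so illness close to death and loss of the gene cannot be told apart. The Rik null libraries came from 4 females and 3 males and the WT libraries from 3 females and 4 males, each from 1 animal and 1 side of the brain.

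Glucose crosses the blood-brain barrier through GLUT1, the product of Slc2a1, which lies in endothelial cells and in astrocytes. Glycolysis turns it into pyruvate, which lactate dehydrogenase interconverts with lactate, which the monocarboxylate transporter MCT1 (Slc16a1) carries across membranes, or which the carrier made of MPC1 and MPC2 takes into mitochondria. There the pyruvate dehydrogenase complex turns it into acetyl-CoA, and the 4 pyruvate dehydrogenase kinases (Pdk1 to Pdk4) switch that complex off by phosphorylating its E1 alpha subunit, the product of Pdha1.

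Expression of 2310061I04Rik was measured in CPM (counts per 1 M mapped counts). It was 30.3 to 40.9 CPM in WT and 1.03 to 3.37 CPM in Rik null, so each of the 14 libraries matched its label. Libraries held 14.7 to 17.9 M counts. The genotypes separated on the first principal component (33.0% of the variance), where Rik null replicate 1 lay apart from the other Rik null libraries, and WT replicate 4 lay apart on the third. Mitochondrial transcripts took 3.62% to 4.52% of counts in Rik null and 5.77% to 7.87% in WT. Of all genes tested, 34.4% passed an adjusted p of 0.05 (edgeR quasi-likelihood test, Benjamini-Hochberg over 16882 genes), 16.5% as higher and 17.9% as lower in Rik null, and 47.9% of the calls were of higher genes, or 63.8% when libraries were scaled by their size alone. All 10 myelinating oligodendrocyte markers, 8 of 10 astrocyte markers, 6 of 8 microglia, 5 of 6 blood, 5 of 8 choroid plexus, 2 of 7 pericyte and smooth muscle and 2 of 3 pituitary markers were lower and none of these higher. Of 10 neuron markers 4 were lower and 1 was higher, and of 12 endothelial markers 1 was lower and 2 were higher. The 2 pituitary calls, Gh and Pomc, rested on uneven WT libraries (19.3 ± 40.6 and 40.7 ± 100.9 CPM, SD) and overlapped between genotypes. Summed pituitary markers ran from 6.31 to 412 CPM in WT, highest in replicate 4, and from 3.55 to 9.06 CPM in Rik null. How much pituitary tissue each sample held was not tested. In bulk RNA, fewer cells of a type and less RNA per cell cannot be told apart.

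Pdk1, Ldha and Pdk3 were lower in Rik null brain and Slc2a1 was higher, while the other 6 genes did not pass the test. The 4 calls among 10 members, 1 higher and 3 lower, stood beside the 34.4% of all genes that passed. No member reached a 2-fold difference in either direction. Of all genes, 3.54% both passed the test and reached 2-fold, and 1.91% did so as higher. The median log2 fold change was -0.03 over the members and -0.00 over all genes. Without both Rik null replicate 1 and WT replicate 4, Pdk1 (-0.35, adjusted p = 4.18e-04), Ldha (-0.33, adjusted p = 0.00184) and Pdk3 (-0.26, adjusted p = 0.0150) still passed in edgeR and Slc2a1 did not. Only Pdk1 among the members had genotypes that did not overlap in any library, which held for 7.03% of all genes in the lower direction, 5.38% in the higher and 12.4% in either.

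**Figure D1:**
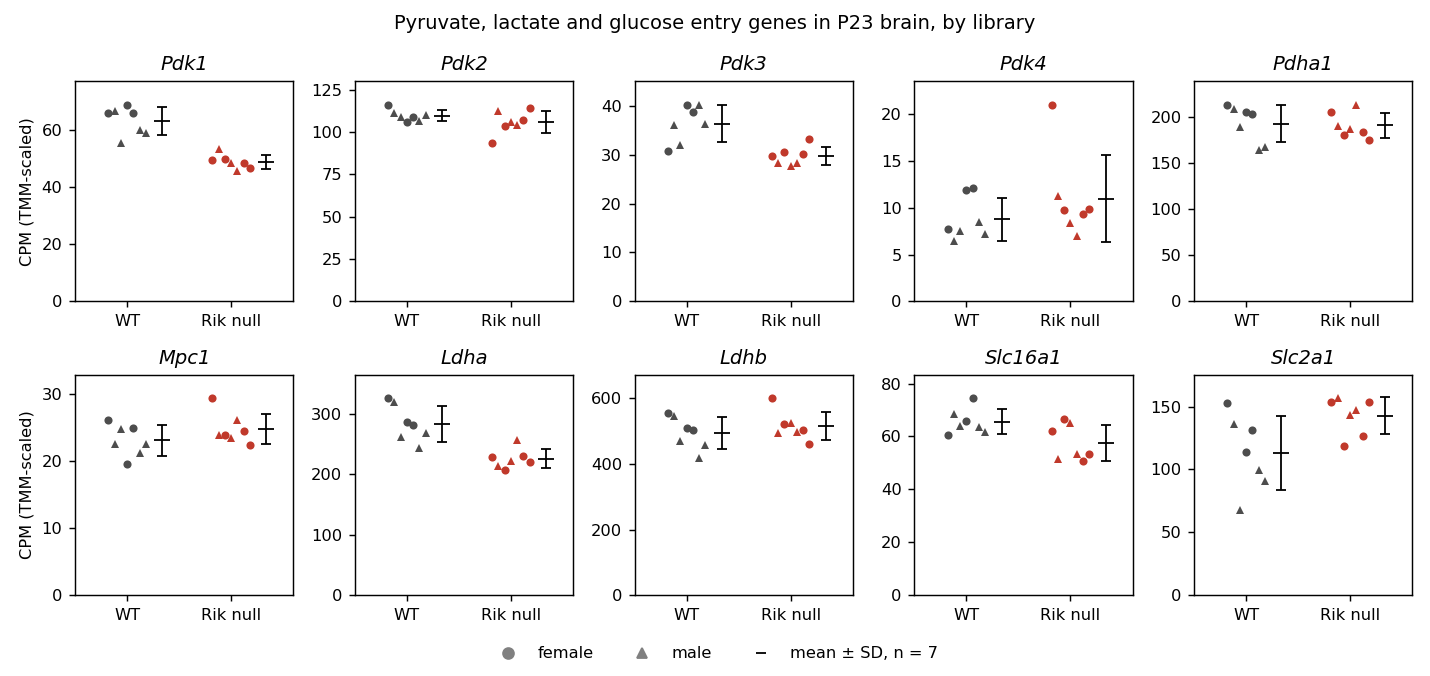
Level of each of the 10 genes in every library, in CPM scaled by the trimmed mean of M-values (TMM), with WT in grey and Rik null in red, circles for females, triangles for males, and bars for the mean ± SD of 7 libraries. Pdk1 separates the genotypes fully, Ldha nearly so, Slc2a1 spreads widely in WT, and Pdk4 has 1 high library at 21.05 CPM.

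The proximal promoters of the 4 genes that passed the test are shown because genes of these families are known targets of the hypoxia-inducible factors (HIF), whose core recognition letters are ACGTG and GCGTG. Each runs from 250 bases before to 50 bases after the first start that RefSeq lists on GRCm38.p6, read in the direction of transcription, and capitals mark either pentamer on either strand, with a palindrome counted on each strand. The places are chr2:71872974-71873273 on the plus strand for Pdk1, chr7:46845554-46845853 on the plus strand for Ldha, chrX:93832101-93832400 on the minus strand for Pdk3 and chr4:119108495-119108794 on the plus strand for Slc2a1.
Pdk1: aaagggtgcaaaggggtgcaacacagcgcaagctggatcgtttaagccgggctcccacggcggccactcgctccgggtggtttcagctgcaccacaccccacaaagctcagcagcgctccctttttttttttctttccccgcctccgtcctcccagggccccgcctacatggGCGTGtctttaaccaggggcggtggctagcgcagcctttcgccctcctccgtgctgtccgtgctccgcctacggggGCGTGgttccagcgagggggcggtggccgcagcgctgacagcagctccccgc
Ldha: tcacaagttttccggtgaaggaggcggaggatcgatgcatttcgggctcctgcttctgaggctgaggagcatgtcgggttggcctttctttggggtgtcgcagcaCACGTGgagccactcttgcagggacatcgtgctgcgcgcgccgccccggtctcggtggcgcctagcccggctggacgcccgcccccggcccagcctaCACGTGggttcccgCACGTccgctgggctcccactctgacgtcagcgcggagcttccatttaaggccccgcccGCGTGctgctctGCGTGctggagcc
Pdk3: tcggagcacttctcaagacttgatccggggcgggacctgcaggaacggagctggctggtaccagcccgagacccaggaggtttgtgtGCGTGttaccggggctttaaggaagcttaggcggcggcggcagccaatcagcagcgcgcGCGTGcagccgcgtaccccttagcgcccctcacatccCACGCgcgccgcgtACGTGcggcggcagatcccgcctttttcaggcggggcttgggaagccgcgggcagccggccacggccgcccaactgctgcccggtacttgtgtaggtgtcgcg
Slc2a1: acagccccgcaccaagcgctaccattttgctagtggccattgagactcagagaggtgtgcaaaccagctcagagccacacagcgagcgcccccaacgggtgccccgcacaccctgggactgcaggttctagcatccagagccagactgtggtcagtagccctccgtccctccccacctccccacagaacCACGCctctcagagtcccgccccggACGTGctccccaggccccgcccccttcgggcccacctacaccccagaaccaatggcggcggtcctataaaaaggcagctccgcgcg

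The Ldha window held 7 matches, 5 of ACGTG and 2 of GCGTG, 2 pairs of the former forming the palindrome CACGTG. Pdk3 held 4 matches, Pdk1 2 and Slc2a1 2. Among the members that did not pass, Slc16a1 held 5, Pdha1 4, Pdk2 2, and Pdk4, Mpc1 and Ldhb 1 each. At the second start that RefSeq lists for 4 of the genes, Ldha held 2 matches and Pdk1, Pdk2 and Mpc1 held 0. Over all starts, 11 of 14 member windows held at least 1 match, beside 43.8% of 32851 promoters of the same length. The 2 figures are not a test of enrichment, because the promoters were not matched for base composition and 4 genes entered with 2 windows each. The matches are letters in a window and were not tested as sites.

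Pdk1 encodes a kinase of the complex that is induced by HIF in many cells, and it is annotated on GRCm38 at chr2:71873224-71903858. Its level was lowest at 45.6, at the median 48.6 and highest at 53.4 CPM in Rik null, and 55.6, 66.0 and 68.9 CPM in WT. Every Rik null library lay below every WT library. The mean fell by 22.7%, from 63.2 ± 4.95 to 48.9 ± 2.48 CPM (SD, n = 7 each), or by a log2 fold change of -0.37 (standard error, SE, 0.06, adjusted p = 1.04e-04 by edgeR). Pdk1 passed in females alone (-0.47, SE 0.09, adjusted p = 0.00408) and in males alone (-0.30, SE 0.09, adjusted p = 0.0456).

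Pdk3, an X-linked gene for the kinase known for its high activity and weak inhibition by pyruvate, lies at chrX:93764607-93832201. Its level was 27.6, 29.7 and 33.1 CPM at the lowest, median and highest in Rik null and 30.8, 36.4 and 40.2 CPM in WT. The genotypes overlapped, with 6 of 7 Rik null libraries below the lowest WT library. The mean fell by 18.3%, or a log2 difference of -0.29 (SE 0.08, adjusted p = 0.00487 by edgeR). In females alone the value was -0.25 and did not pass (adjusted p = 0.176).

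Pdk2, the kinase gene with the widest expression across tissues (chr11:95026258-95041354), had 93.8, 106.1 and 114.4 CPM at the lowest, median and highest in Rik null and 106.1, 109.0 and 116.2 CPM in WT. The genotypes overlapped, and the log2 fold change was -0.05 (SE 0.05, adjusted p = 0.474 by edgeR), which turned to 0.02 when libraries were scaled by size alone. Pdk4, the kinase gene that fasting induces in muscle, heart and liver (chr6:5483351-5496309), had 7.00, 9.76 and 21.05 CPM in Rik null and 6.44, 7.74 and 12.2 CPM in WT. Rik null replicate 1 alone lay above the highest WT library. The log2 fold change of Pdk4 was 0.32 (SE 0.20, adjusted p = 0.232 by edgeR), and without that library it was 0.09 (adjusted p = 0.703).

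Levels of different genes were compared per gene length, as FPKM (counts divided by gene length and library total). Pdk2 made up 58.4% ± 2.72 of the summed FPKM of the 4 kinase genes in WT and 61.4% ± 2.83 in Rik null (SD, n = 7 each), and Pdk3 23.8% ± 2.06 and 21.3% ± 0.98. The Pdk1 share was 12.7% to 14.4% in WT and 10.4% to 12.1% in Rik null, with no overlap. The Pdk4 share was 4.18% ± 0.99 in WT and 5.73% ± 2.47 in Rik null, of which replicate 1 gave 11.2%. Summed over the 4 genes, the kinases had 58.8 ± 1.88 FPKM in WT and 54.0 ± 2.15 FPKM in Rik null, overlapping between 55.5 and 57.4 FPKM. These shares and sums are descriptions without a test, and how often such shares separate the genotypes for other genes was not counted.

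Ldha encodes the muscle-type (M) subunit of lactate dehydrogenase, the subunit classically linked to making lactate, and lies at chr7:46841475-46855627. Its level was 207.7, 222.1 and 256.5 CPM at the lowest, median and highest in Rik null and 244.0, 280.9 and 325.7 CPM in WT. Of the Rik null libraries, 6 of 7 lay below the lowest WT library, and replicate 5 was the exception. The mean fell by 20.4%, or a log2 difference of -0.33 (SE 0.07, adjusted p = 5.66e-04 by edgeR). In males alone the value was -0.24 and did not pass (adjusted p = 0.108).

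Ldhb encodes the heart-type (H) subunit and lies at chr6:142490249-142507957. Its level was 461.7, 504.2 and 600.0 CPM at the lowest, median and highest in Rik null and 419.3, 502.6 and 554.2 CPM in WT. The ranges lay largely on each other, and the log2 fold change was 0.06 (SE 0.07, adjusted p = 0.534 by edgeR).

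The ratio of Ldha to Ldhb in FPKM was therefore taken within each library, where it does not depend on how libraries are scaled. It ran from 0.264 to 0.279 in WT, with a mean of 0.272 ± 0.00686, and from 0.181 to 0.245 in Rik null, with a mean of 0.209 ± 0.0222 (SD, n = 7 each). All 7 Rik null libraries had a lower ratio than all 7 WT libraries, although Ldha alone overlapped. The ratio was given no test, and it shows unequal change of the 2 genes and not which of them moved. How often the ratios of other gene pairs separate the genotypes was not counted.

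**Figure D2:**
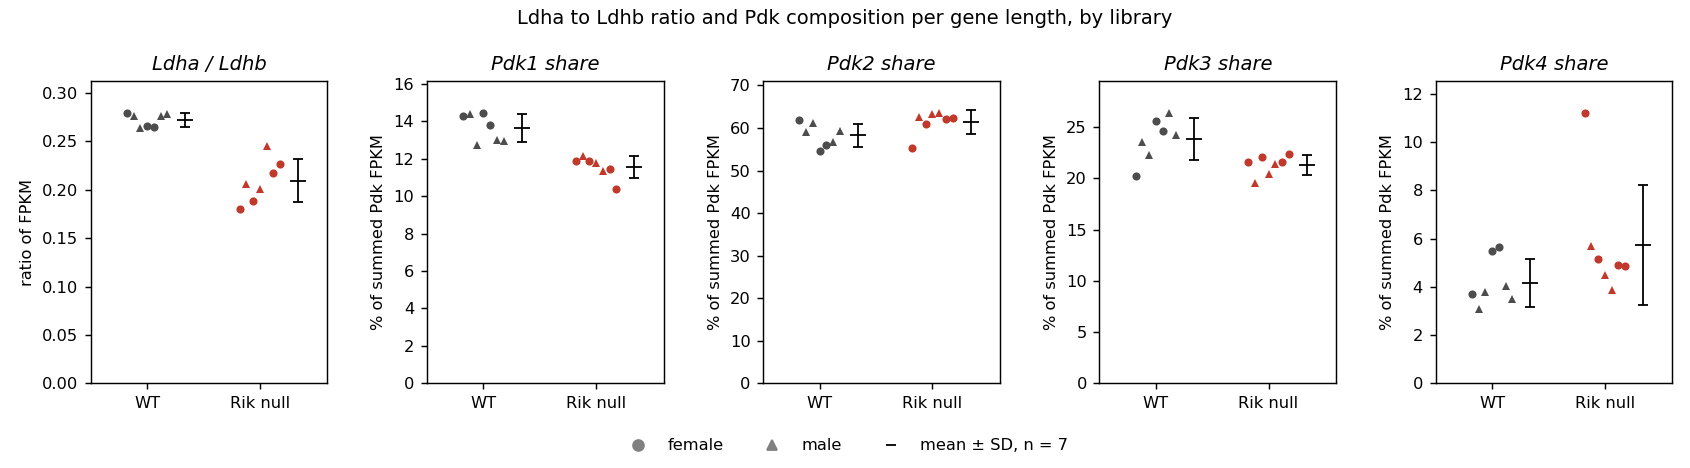
Ratio of Ldha to Ldhb FPKM (left) and each kinase gene as a percent of the summed Pdk FPKM in every library, with circles for females, triangles for males and bars for the mean ± SD of 7 libraries. The ratio lies between 0.264 and 0.279 in WT and at or below 0.245 in Rik null, the Pdk1 share also separates the genotypes, and the Pdk4 share of 11.2% belongs to Rik null replicate 1.

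Pdha1, the X-linked gene of the E1 alpha subunit (chrX:160122209-160138413), had 174.7, 187.0 and 213.2 CPM at the lowest, median and highest in Rik null and 163.6, 203.0 and 212.6 CPM in WT. Its log2 fold change was -0.02 (SE 0.07, adjusted p = 0.878 by edgeR), and its sign turned with the scaling and in males. Mpc1, for a subunit of the mitochondrial pyruvate carrier (chr17:8282904-8297661), had 22.4, 23.8 and 29.3 CPM in Rik null and 19.5, 22.6 and 26.1 CPM in WT. Its log2 fold change was 0.10 (SE 0.08, adjusted p = 0.359 by edgeR).

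The level of Mpc1 itself is uncertain, because its processed pseudogene Mpc1-ps was assigned 11896 counts over the 14 libraries against 5477 for Mpc1, or 217% of it. How the authors assigned reads that match both is not given in the sources used here. With both rows summed, an alternative chosen after seeing the data, the log2 fold change was 0.08 (adjusted p = 0.427 by edgeR). The pseudogenes of Ldha and Ldhb held at most 0.343% of their parent's counts. Among genes that overlap a member, 4930506C21Rik on the opposite strand of Mpc1 held 8.03% of its counts and Map3k15 opposite Pdha1 held 1.32%.

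Slc2a1 lies at chr4:119108711-119137983. Its level was 119.0, 147.6 and 156.4 CPM at the lowest, median and highest in Rik null and 68.0, 113.9 and 153.0 CPM in WT. WT varied more, with a coefficient of variation of 25.9% against 10.2% in Rik null, and 3 Rik null libraries lay above the highest WT library. The mean was 142.8 ± 14.5 CPM in Rik null and 113.1 ± 29.3 CPM in WT (SD, n = 7 each), a 1.26-fold difference or 0.34 on the log2 scale (SE 0.13, adjusted p = 0.0433 by edgeR).

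The call on Slc2a1 was close to the threshold. It was lost when any of 9 of the 14 libraries was left out, with adjusted p up to 0.0850, and WT replicate 3, the lowest library, moved the value most downward, to 0.24 (adjusted p = 0.0768). Without both Rik null replicate 1 and WT replicate 4 the adjusted p was 0.0981, and with robust estimation of the dispersion it was 0.0915. Summed endothelial markers were 387 to 433 CPM in Rik null and 338 to 439 CPM in WT, and their lowest and highest WT libraries, replicates 3 and 1, were also the lowest and highest for Slc2a1. In Rik null the extremes did not match, since the endothelial sum was lowest in replicate 1, where Slc2a1 was at 153.3 CPM, and highest in replicate 4, whereas Slc2a1 was lowest in replicate 3 and highest in replicate 2. Summed astrocyte markers were 4211 to 5140 CPM in Rik null and 5727 to 6899 CPM in WT, and the part of either cell type in the Slc2a1 result was not tested.

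In males, Slc2a1 was at 142.9 to 156.4 CPM in 3 Rik null libraries and at 68.0 to 135.8 CPM in 4 WT libraries, without overlap, and the log2 fold change was 0.60 (SE 0.16, adjusted p = 0.0258 by edgeR). Separation of so few libraries carries less weight than separation over all libraries, and the share of all genes that separate in males was not counted. In females it was at 119.0 to 153.7 CPM in 4 Rik null libraries and at 113.9 to 153.0 CPM in 3 WT libraries, and the difference on the log2 scale was 0.05 (SE 0.12, adjusted p = 0.797 by edgeR). The interaction of genotype and sex did not pass for Slc2a1 (0.54, male minus female, SE 0.22, adjusted p = 0.832 by edgeR). It passed only with no filter on low counts (0.55, adjusted p = 0.0456). Across all genes the interaction gave 0 calls of 16882 in edgeR, with 984 at an unadjusted p under 0.05, so the sexes were not shown to differ for any member under the planned filter.

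**Figure D3:**
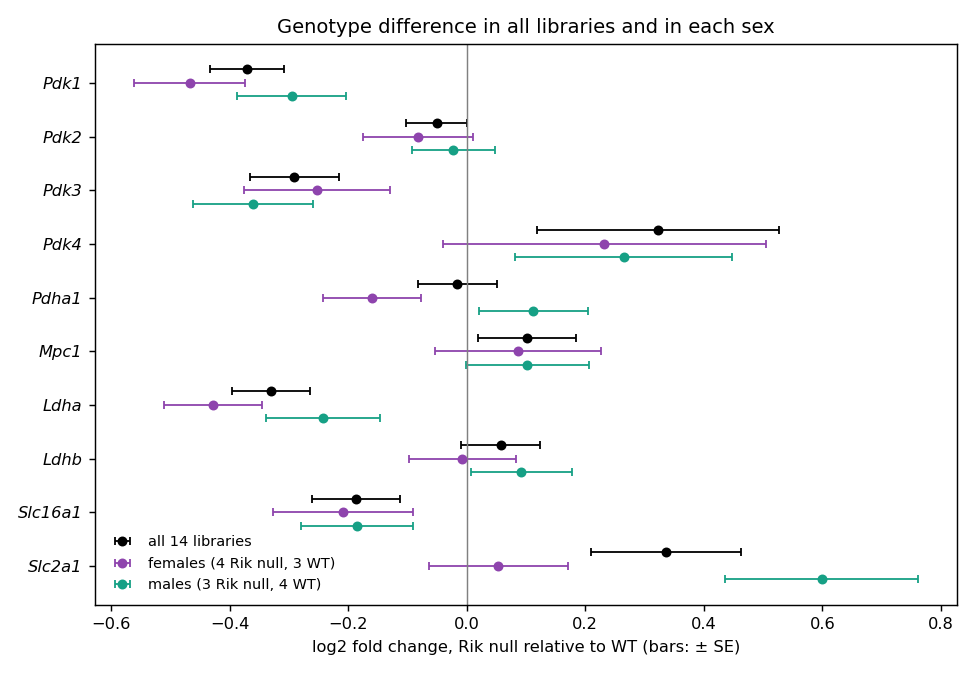
Log2 fold change of Rik null relative to WT for the 10 genes in all 14 libraries (black), in females (purple) and in males (green), with bars for ± 1 SE. Pdk1, Pdk3 and Ldha lie below 0 in both sexes, and Slc2a1 lies at 0.05 in females and at 0.60 in males.

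Slc16a1 lies at chr3:104638668-104658462, and MCT1 is found in brain endothelial cells, oligodendrocytes and astrocytes. Its level was 50.8, 53.2 and 66.7 CPM at the lowest, median and highest in Rik null and 60.7, 63.8 and 74.4 CPM in WT. The genotypes overlapped, with 4 Rik null libraries below the lowest WT library. The log2 fold change was -0.19 (SE 0.07, adjusted p = 0.0542 by edgeR), and it passed when Rik null replicate 1, 3 or 4 or WT replicate 1 was left out, the adjusted p ranging from 0.0224 to 0.128 over the 14 libraries left out in turn. With libraries scaled by size alone it was -0.12 (adjusted p = 0.226). Summed myelinating oligodendrocyte markers were 12953 to 16026 CPM in Rik null and 18761 to 23111 CPM in WT, and their part in the levels of the lower members was not tested.

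By level per gene length, WT brain held most of Ldhb (311 ± 30.7 FPKM), then Ldha (84.7 ± 8.84), Pdha1 (51.0 ± 5.31), Pdk2 (34.3 ± 1.03), Slc2a1 (31.9 ± 8.26), Slc16a1 (14.6 ± 1.07), Pdk3 (14.02 ± 1.46), Mpc1 (10.9 ± 1.10), Pdk1 (8.03 ± 0.63) and Pdk4 (2.47 ± 0.66 FPKM, SD, n = 7 each). The neighbours Pdk2 and Slc2a1, Slc16a1 and Pdk3, and Pdk3 and Mpc1 overlapped in range over the WT libraries. In Rik null, Slc2a1 (40.4 ± 4.06 FPKM) stood above Pdk2 (33.2 ± 2.12 FPKM) in 7 of 7 libraries, against 3 of 7 WT libraries. Mpc1 (11.8 ± 1.08 FPKM) and Pdk3 (11.5 ± 0.72 FPKM) also changed places in Rik null, within overlapping ranges. The place of Mpc1 is uncertain in both genotypes, because Mpc1-ps was assigned 217% of its counts.

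With the genotype means removed, some members varied together over the 14 libraries. The highest Pearson correlations of log2 CPM were between Pdha1 and Ldha (0.81), Pdha1 and Ldhb (0.78), Pdk1 and Slc2a1 (0.70), Ldha and Slc2a1 (0.65) and Ldha and Ldhb (0.63). By the same measure the genes most like Pdk1 included Kcnk2 (0.95), Psat1 (0.91), Pgm1 (0.86) and Net1 (0.83). Those most like Slc2a1 were Fgfr3 (0.89), Slc39a11 (0.87), Eva1a (0.86), Serp2 (0.86) and Bcas1 (0.86). All points share the library and its scaling, and the values are descriptions.

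Among the other genes of the pyruvate dehydrogenase complex, its phosphatases and Mpc2, 1 of 8 tested rose and 1 fell. This count and those of the lists below stand beside the 34.4% of all genes that passed. Pdp2, a phosphatase that switches the complex back on, fell from 16.6 ± 2.94 to 9.59 ± 0.76 CPM without overlap (log2 fold change -0.79, SE 0.11, adjusted p = 1.25e-05 by edgeR). Pdhx, which binds the E3 subunit to the core, rose from 56.2 ± 2.83 to 65.7 ± 5.28 CPM without overlap (0.23, SE 0.06, adjusted p = 0.00633). Dlat, the E2 core, and Dld, the E3 subunit, did not pass at 0.11 each, though of 26 alternative fits Dlat passed in 3 and Dld in 1.

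Other enzymes that use or make pyruvate gave 1 higher and 4 lower of 6 tested. The cytosolic malic enzyme gene Me1 fell from 73.7 ± 4.91 to 54.7 ± 4.49 CPM (log2 fold change -0.43, SE 0.06, adjusted p = 2.96e-05 by edgeR), and the mitochondrial Me2 from 31.1 ± 2.55 to 19.4 ± 4.30 CPM (-0.68, SE 0.12, adjusted p = 1.79e-04), neither with overlap. The alanine transaminase genes Gpt and Gpt2 fell by 0.53 and 0.42 on the log2 scale, and neither passed in males alone (Gpt -0.45, adjusted p = 0.101, and Gpt2 -0.21, adjusted p = 0.158, by edgeR). Ldhd, the D-lactate dehydrogenase gene and the only other lactate dehydrogenase gene tested, was at 0.25 (adjusted p = 0.0512). It passed in 7 of 26 alternative fits, among them the DESeq2 Wald test (adjusted p = 0.0344).

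Of the other monocarboxylate transporters and their chaperones, 3 of 6 tested fell and none rose. Slc16a7, for the high-affinity transporter MCT2 known from neurons, fell from 70.3 ± 7.89 to 34.3 ± 8.09 CPM without overlap (log2 fold change -1.03, SE 0.13, adjusted p = 3.13e-06 by edgeR). Slc16a6 fell from 9.31 ± 1.72 to 5.66 ± 1.18 CPM (-0.72, SE 0.15, adjusted p = 9.89e-04). Bsg, for basigin, the chaperone that brings MCT1 to the cell surface, fell from 541.9 ± 58.3 to 467.9 ± 20.5 CPM (-0.21, SE 0.06, adjusted p = 0.0114), which was not called when libraries were scaled by size alone (adjusted p = 0.0529) or in males alone (-0.11, adjusted p = 0.446).

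Of the other glucose transporter genes, 2 of 10 tested rose and 2 fell. Slc2a4, for the insulin-responsive GLUT4, rose from 3.73 ± 0.71 to 10.6 ± 2.37 CPM (log2 fold change 1.5, SE 0.15, adjusted p = 3.05e-07 by edgeR). Slc2a3, for the neuronal GLUT3, rose from 163.2 ± 6.83 to 202.7 ± 15.96 CPM (0.31, SE 0.06, adjusted p = 2.04e-04), and neither of these 2 overlapped between genotypes. Slc2a5, for the fructose transporter that microglia express, fell from 3.596 ± 0.96 to 1.30 ± 0.53 CPM (-1.46, SE 0.27, adjusted p = 2.59e-04), and Slc2a6 fell by 0.48 on the log2 scale. Summed microglia markers were 175 to 236 CPM in Rik null and 273 to 378 CPM in WT, and their part in Slc2a5 was not tested.

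**Figure D4:**
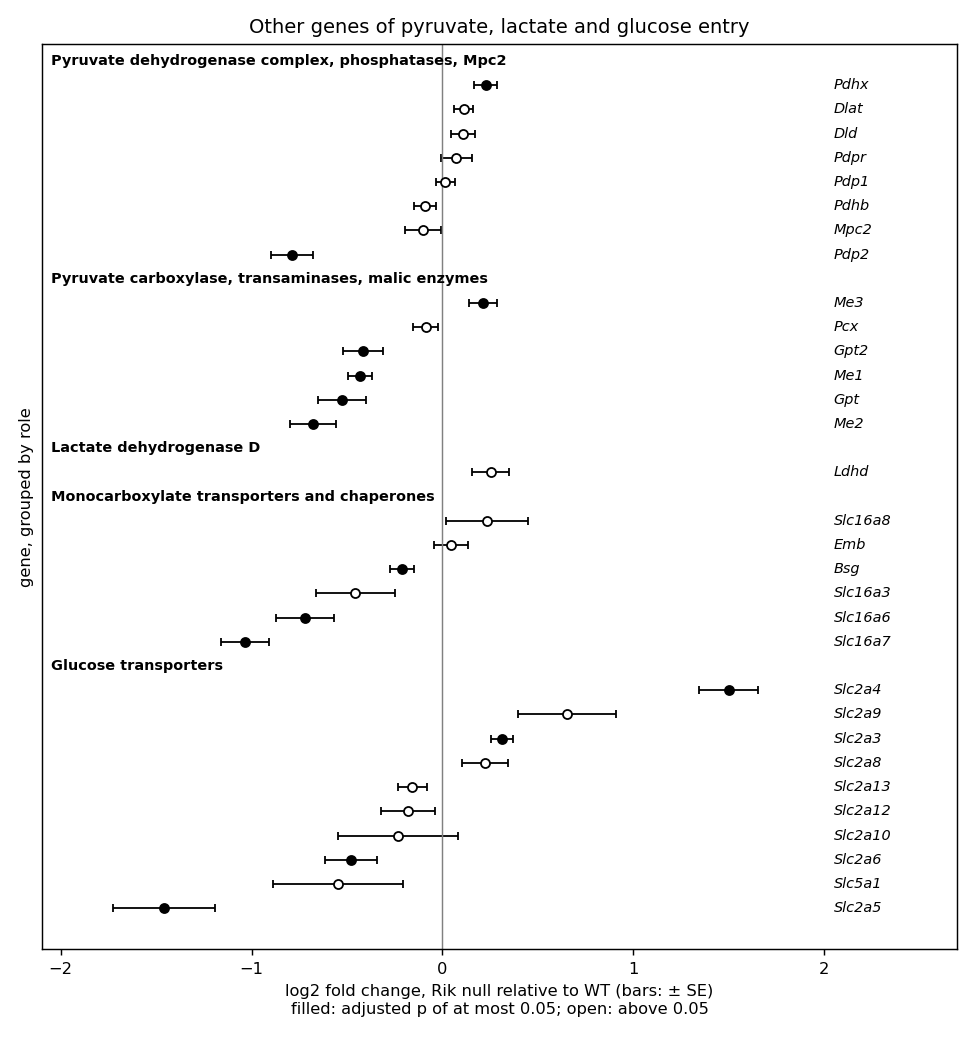
Log2 fold change of Rik null relative to WT, with bars for ± 1 SE, for the tested genes of 5 related groups, filled where the adjusted p was at most 0.05 and open where it was above. Slc2a4 lies farthest to the right at 1.5, and Slc2a5 (-1.46) and Slc16a7 (-1.03) farthest to the left.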

How the data were processed

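Brain RNA-seq was performed at a commercial provider. The authors deposited raw read counts and FPKM per gene for 14 libraries; aligner, counter, annotation and use of strand were "not given in the sources used here", and the submitters' processing notes name GRCm38. The deposited FPKM were counts divided by gene length and a constant per library, and were used only to compare levels between genes. The authors' mean counts, fold changes and p-values were not used. Table positions mostly differ from GENCODE M21 on GRCm38 (1448 of 52073 shared identifiers with the same chromosome and start), although the notes name that build. Which build the table positions follow was not determined. Places therefore came from GENCODE by identifier.

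Counts were fitted with edgeR 4.0.16 (limma 3.58.1, R 4.3.3; quasi-likelihood F test, TMM, filterByExpr, common coefficient of variation 14.3%), with Benjamini-Hochberg adjustment over 16882 tested of 56748 genes. The fit was also run on simulated data, with the same dispersion for every gene and changes larger than those of the called members. That run does not speak to the member calls. CPM used TMM-scaled library sizes. SE was the log2 fold change divided by the root of F. DESeq2 1.42.0 was an alternative. Members, gene lists and tests were chosen with earlier results of these data known. Named genes were all members, up to 4 of smallest p per pathway list, and the 5 most alike genes of the leading member in each direction; Ldhd was the only tested gene of its list. A few genes that this rule names are not reported here. The main fit did not pair samples by replicate number, and the labels do not say whether the numbers mark pairs. Animals are separate but litters are not given.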

Additional observations from a re-analysis of the deposited data

Results flagged for a closer look

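Of 30 sets of 7 libraries tested for a library far from the others, 3 held one, and chance gives about 1 in 20. Each was Rik null replicate 1, the library that also stood apart on the first principal component. Pdk4 was at 21.05 CPM there, with the next Rik null library at 11.3 CPM. Its Pdk4 share of the summed Pdk FPKM was 11.2%, with the next at 5.68%, and its Pdk2 share was 55.3%, with the next at 60.9%. The shares of 1 library sum to a whole, so the last 2 are not independent of the first.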

How the results depend on the processing

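Pdk1 was lower and passed in all 26 alternatives, with a log2 fold change between -0.47 and -0.30. Ldha ranged from -0.43 to -0.24 and failed in males alone (adjusted p = 0.108), and Pdk3 from -0.36 to -0.22 and failed in females alone (adjusted p = 0.176). Slc2a1 ranged from 0.05 to 0.60 and failed in 12 of 26. The number of members called as higher was therefore 0 with the robust option, without both Rik null 1 and WT 4 and in females alone, and 0 to 1 when 1 library was left out, while 2 members were called in females alone, Pdk1 and Ldha. Genes called numbered 2874 in females alone and 2737 in males alone, which have fewer samples, and those past 2-fold numbered 1107 with no filter beyond 1 count, against 597. The interaction of genotype and sex gave 50 genes and 1 member, Slc2a1, with that filter removed, and 0 to 2 genes when 1 library was left out. Signs turned for uncalled genes: Pdk2 to 0.0191 and Pdha1 to 0.0554 with library size alone, Pdha1 to 0.11 and Epas1 to 0.0080 in males, Ldhb to -0.00755 and Dld to -0.00741 in females, and Pdha1 between -0.0532 and 0.00755 when 1 library was left out. Other named genes lost their call in 1 sex alone, Pdhx in males (0.13, adjusted p = 0.262), Slc16a6 (adjusted p = 0.0786) and Slc2a3 (adjusted p = 0.0582) in females, Hif1a in males (adjusted p = 0.395), and Slc2a6 and Ppard in each sex (adjusted p 0.0559 to 0.197). The causes were not tested. Samples with the same number did not deviate together (correlations from -0.06 to 0.14, 1 of 7 pairs over 0.1). With the replicate block, 5966 genes and 4 members were called, and Slc2a1 was at 0.37 (adjusted p = 0.00262). Pdk4, the lowest member, rested on 94 to 374 counts per library.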

Other observations

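Genes named in other work as regulators of Pdk4 and of the HIF pathway gave 1 higher and 1 lower call among 16 tested, beside 34.4% of all genes called. Hif1a, for the oxygen-regulated HIF subunit, rose from 117.4 ± 10.03 to 134.7 ± 11.8 CPM (log2 fold change 0.20, adjusted p = 0.0225 by edgeR), a call lost in 4 of 26 alternatives. It was lost without Rik null replicate 4 (adjusted p = 0.0557 by edgeR) and without WT replicate 2 (adjusted p = 0.0503). Leaving out both Rik null 1 and WT 4 also removed it (adjusted p = 0.0731). Ppard, for a nuclear receptor that induces Pdk4, fell by 0.29 on the log2 scale (adjusted p = 0.00828). Of 14 other HIF target genes, 2 rose and 2 fell. P4ha1 fell from 43.6 ± 3.03 to 25.6 ± 4.57 CPM (-0.77, adjusted p = 6.95e-06 by edgeR). The angiogenic factor gene Vegfa fell from 42.8 ± 7.95 to 31.7 ± 1.33 CPM (-0.44, adjusted p = 0.00121 by edgeR), but did not pass in females alone (-0.22, adjusted p = 0.195). The histone demethylase gene Kdm3a rose from 39.0 ± 3.17 to 60.8 ± 11.1 CPM (0.64, adjusted p = 2.56e-05), and Ero1a rose by 0.18 on the log2 scale (adjusted p = 0.0429), a call lost in 16 of 26 alternatives (adjusted p 0.00991 to 0.451).

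Of 13 tested PPAR and fasting target genes other than Pdk4, 3 rose and 6 fell. Hadha, for a subunit of the mitochondrial trifunctional protein of fatty acid oxidation, fell from 96.5 ± 8.54 to 70.7 ± 5.38 CPM (log2 fold change -0.45, adjusted p = 2.77e-05 by edgeR) and Cpt1a, for a carnitine palmitoyltransferase, from 40.2 ± 6.14 to 30.3 ± 2.15 CPM (-0.41, adjusted p = 0.00124). Of the higher genes, 2 were named after their values were seen, Txnip, for an inhibitor of glucose uptake, and Angptl4, for an inhibitor of lipoprotein lipase. Rik null replicate 1 was the highest library for both, with Txnip at 142.2 CPM against 43.3 CPM in the next and Angptl4 at 24.7 against 4.72 CPM. Without it neither passed (Txnip 0.48, adjusted p = 0.0502; Angptl4 0.40, adjusted p = 0.224), so the library that stood apart for Pdk4 also stood apart for these 2 genes.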
